A study of Mus musculus with 40 samples.

Results

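The genes described here are 9 markers of the activated, matrix-making fibroblasts that appear in fibrotic lung: Cthrc1, Lrrc15, Fap, Postn, Cilp, Col10a1, Chodl, Comp and Cd276. They are 9 of the 55536 genes counted in each model, and they were chosen as known markers of such fibroblasts with earlier results of these libraries in view. The values they were selected on are not recorded, and the changes in the bleomycin model are treated as used. Their changes in the bleomycin model, and the differences between models that use those changes, are given as descriptions that carry no weight as tests, and the p-values printed for other comparisons are not evidence independent of the choice. The libraries came from the whole left lungs of 40 C57BL/6 mice, in 8 groups of 5, and the study asked what saracatinib does in lung fibrosis. In the bleomycin model the mice received saline or bleomycin (1.5 U/kg) by the oropharyngeal route. In the Ad-TGF-β1 model they received an empty vector, or an adenovirus that drives mouse TGF-β1 from the CMV promoter, through the nose. In both models saracatinib (20 mg/kg), an inhibitor of Src family kinases, or vehicle was gavaged daily from day 10 to day 27, and the lungs were taken on day 28, so that all 40 mice had been gavaged. The 4 groups of the bleomycin model were saline with vehicle, saline with saracatinib, bleomycin with vehicle and bleomycin with saracatinib. The 4 groups of the Ad-TGF-β1 model were empty vector with vehicle, empty vector with saracatinib, Ad-TGF-β1 with vehicle and Ad-TGF-β1 with saracatinib. Mice of both sexes were used, the sex of each library is not in the labels, and the empty vector carries the virus without the transgene.

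Fibroblasts in an injured lung can leave their resting state and turn into cells that lay down collagen and other matrix. TGF-β, released and activated in the wound, is the best known signal for that change, and Src family kinases act in the adhesion and stiffness signals that go with it. Cthrc1 encodes a secreted protein that marks the fibroblasts making the most collagen, and Lrrc15 a membrane protein of TGF-β-driven fibroblasts. Fap encodes a cell-surface serine protease and Postn the matricellular protein periostin. Cilp, Comp and Col10a1 encode matrix proteins that were first known from cartilage, Chodl encodes a C-type lectin of the cell membrane, and Cd276 the surface protein B7-H3 of the B7 family. In whole lung RNA, fewer cells of a type and less RNA per cell cannot be told apart.

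All 9 are protein-coding genes in GENCODE M21 (GRCm38). Cthrc1 lies at chr15:39076932-39087121, Fap at chr2:62500943-62574075 and Postn at chr3:54361109-54391037. Cilp (chr9:65265180-65280605) and Cd276 (chr9:58524298-58555437) share a chromosome, as do Lrrc15 (chr16:30269302-30283256) and Chodl (chr16:78930948-78951733). Comp lies at chr8:70373558-70382066 and Col10a1 at chr10:34389981-34397085. Col10a1 shares 18 exon bases with Nt5dc1 on the opposite strand, and Nt5dc1 stayed between group means of 22.3 and 27.6 CPM (counts scaled to the library total) throughout. Cd276 shares 416 exon bases with Gm10657, also on the opposite strand, which had at most 3 counts in a library.

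RefSeq promoter windows (GRCm38.p6, from 250 bases before to 50 after the start site) were found for 6 of the 9 genes, in 7 windows. A search on both strands for the letters of 5 motifs matched a pair of windows. The AP-1 letters TGANTCA, which read the same on both strands, matched the Lrrc15 window at −53, and 7.81% of 32851 windows hold them. The RUNX letters TGTGGT matched the Cilp window at −205 on the opposite strand, and 16.8% of windows hold them. The TEAD letters GGAATG (14.7% of windows), the SMAD letters CAGACA (21.0%) and the SOX9 letters ACAATG (12.6%) were in none of the 7 windows. The motifs do not overlap one another in these windows, and a match is a description of the letters only. The 250 upstream bases of the matched windows are shown because they are the pair in which any of the letters were found, with the matched letters in capitals. The Lrrc15 stretch is chr16:30283255-30283504 (minus strand) and the Cilp stretch chr9:65264930-65265179 (plus strand).
Lrrc15: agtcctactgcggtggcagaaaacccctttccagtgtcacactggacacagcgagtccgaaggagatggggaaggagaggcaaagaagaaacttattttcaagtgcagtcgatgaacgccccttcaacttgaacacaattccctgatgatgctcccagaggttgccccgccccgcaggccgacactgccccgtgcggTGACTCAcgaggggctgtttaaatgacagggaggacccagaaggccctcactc
Cilp: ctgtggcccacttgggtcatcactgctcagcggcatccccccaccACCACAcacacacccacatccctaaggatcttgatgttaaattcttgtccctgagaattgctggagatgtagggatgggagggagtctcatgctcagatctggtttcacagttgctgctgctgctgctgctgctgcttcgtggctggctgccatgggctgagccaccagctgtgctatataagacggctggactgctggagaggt

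Libraries held 8.81 to 17.3 megacounts (M) in total. The tissue label was checked with 12 lung markers, such as Sftpc of alveolar type 2 cells and Scgb1a1 of club cells, all of which were detected in every group. Their summed level ran from 8860 to 13000 CPM over the 40 libraries. The libraries farthest from the rest of their groups over all genes were replicates 1 and 5 of empty vector with vehicle, replicate 3 of bleomycin with vehicle and replicate 5 of saline with saracatinib. Adjusted p-values are from edgeR's quasi-likelihood test with Benjamini-Hochberg adjustment over all genes tested, calls were made where that value was under 0.05, and changes are log2 fold changes with their SE.

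Per gene length the markers spanned a wide range of levels. In the 5 bleomycin lungs given vehicle, Postn stood at 45.5 ± 11 FPKM (CPM per kilobase of exon, SD, n = 5), Cilp at 11.3 ± 4.54, Cthrc1 at 7.93 ± 3.03 and Cd276 at 5.94 ± 1.33. Col10a1 (1.14 ± 0.21 FPKM), Lrrc15 (1.05 ± 0.837), Fap (0.763 ± 0.0674), Chodl (0.651 ± 0.204) and Comp (0.629 ± 0.189) were the low members. In saline lungs given vehicle, Postn was already at 42.4 ± 7.72 FPKM, while the group mean of no other member reached 2 FPKM. All levels from here on are CPM.

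**Figure D1:**
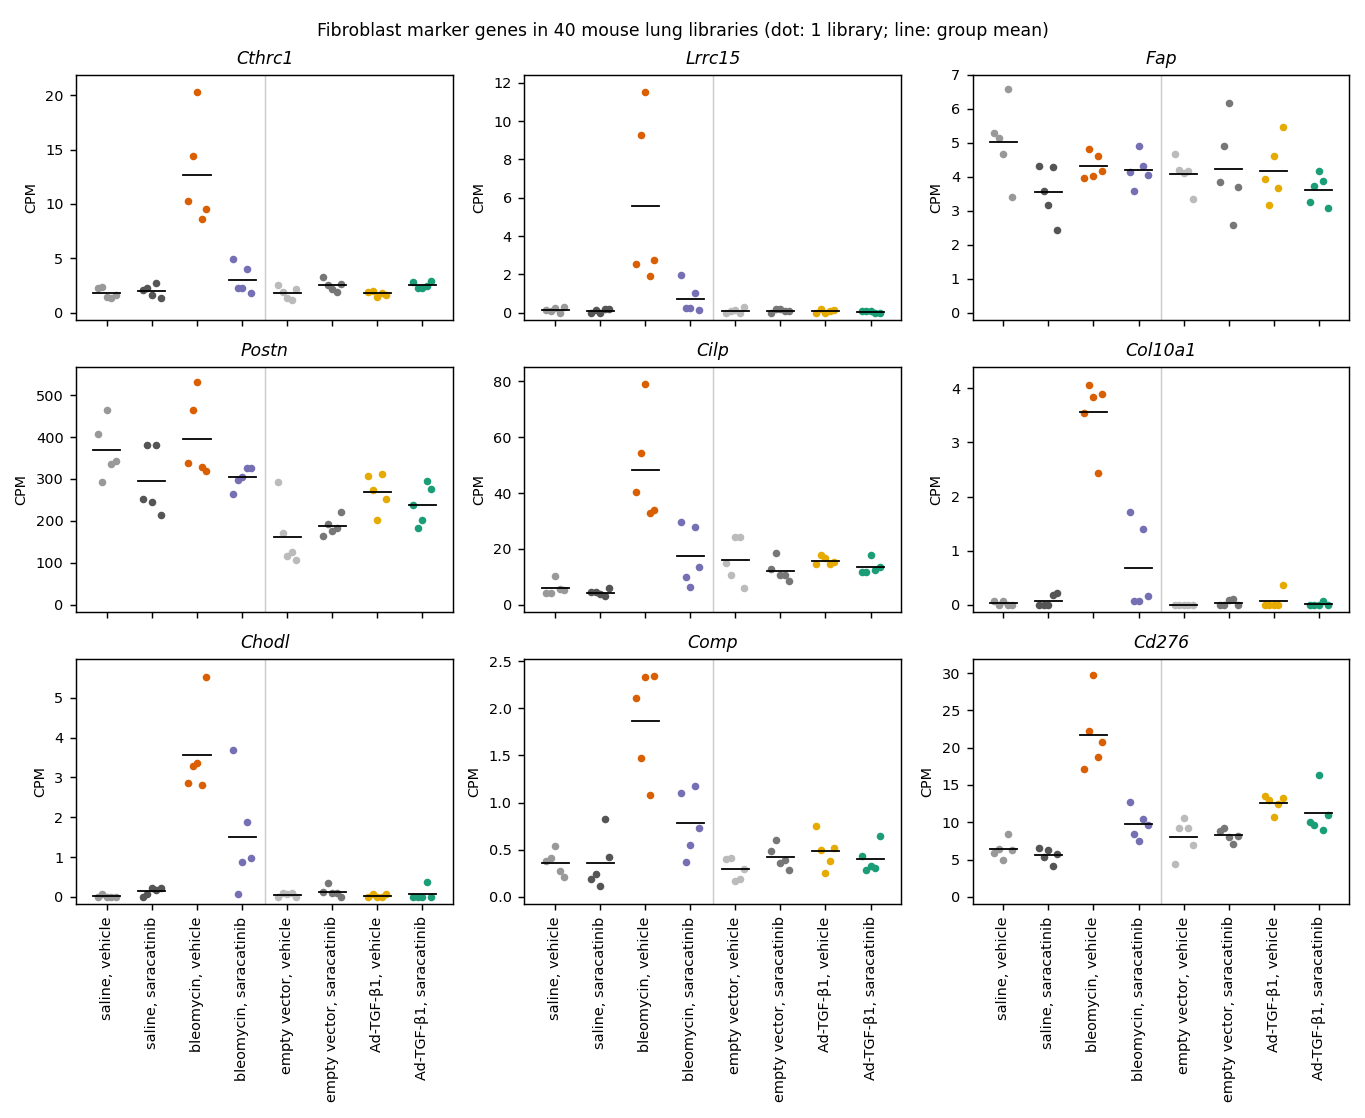
CPM (y axis, from 0, a scale per gene) of the 9 marker genes in each of the 40 libraries (dots) of the 8 groups (x axis), with the group mean as a line. For all markers but Fap the bleomycin and vehicle group holds the highest of the 40 libraries, while Fap stays between 2.44 and 6.6 CPM in every group.

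Cthrc1 was low in control lungs and rose with bleomycin. Its level was 1.36, 1.48, 1.59, 2.27 and 2.32 CPM in the saline and vehicle libraries and 8.57, 9.57, 10.3, 14.4 and 20.3 CPM with bleomycin and vehicle. The groups did not overlap, and the fitted change was 2.77 ± 0.29. Lrrc15 went from 0 to 3 counts per library (0, 0.083, 0.151, 0.234 and 0.319 CPM) to 1.89, 2.53, 2.76, 9.26 and 11.5 CPM, a change of 5.08 ± 0.76. The bleomycin libraries of Lrrc15 fell into a lower set of 3 and an upper pair, and the upper pair (replicates 2 and 3) was also highest for Cthrc1 and Cilp.

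The members first known from cartilage, and Chodl, rose from low levels. Cilp stood at 4.08, 4.15, 5.21, 5.61 and 10.3 CPM in saline lungs and at 32.7, 33.9, 40.5, 54.4 and 79 CPM with bleomycin, a change of 3.00 ± 0.38. Comp went from 0.213, 0.271, 0.378, 0.415 and 0.545 CPM to 1.08, 1.47, 2.11, 2.33 and 2.34 CPM, a change of 2.27 ± 0.38. Neither gene had a bleomycin library within the range of its saline libraries. Col10a1, the collagen X chain that textbooks place in hypertrophic cartilage, had 2 counts in all 5 saline and vehicle libraries together. With bleomycin it was at 2.44, 3.54, 3.85, 3.9 and 4.07 CPM, 241 counts in all. The ratio of the summed counts was 106, with an exact 95% interval from 29.1 to 882 that covers counting error only. Chodl had 1 count in the saline libraries and 241 counts with bleomycin (2.8, 2.87, 3.3, 3.37 and 5.53 CPM), a ratio of 212 with an interval from 37.8 to 8430. The fitted changes, 6.32 ± 0.84 for Col10a1 and 7.03 ± 0.89 for Chodl, depend on the prior count at such levels. Without the 1 saline library that held a Chodl count (replicate 2) the fitted change of Chodl was 8.47. Limma voom, run throughout with a quality weight for each library, gave 5.86 for Chodl and 5.63 for Col10a1.

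Other cartilage genes moved both ways in the same lungs. From a list of 35 genes of cartilage matrix and growth plate, 22 were tested in the bleomycin model. With bleomycin 11 rose and 4 fell, where 20.6% of all genes tested rose and 20.3% fell. The falls were thus near the share of all genes. The median change of the 22 was 0.34, against −0.03 over all genes. The largest rises were those of Frzb, a secreted Wnt antagonist (6.53 ± 0.85), Thbs4, a thrombospondin of tendon and muscle (6.13 ± 0.71), Col11a1, a fibril collagen chain (5.67 ± 0.71), and Fmod, a collagen-binding proteoglycan (2.97 ± 0.33). Markers of the cartilage cells of the airway wall were measured beside them. Of these 11 genes 4 were tested, of which 1 rose and 2 fell with bleomycin. The summed level of all 11 was 26 to 47.2 CPM in saline lungs and 11.7 to 26.4 CPM with bleomycin, and most of the sum in saline lungs was Chad. Chad, a leucine-rich cartilage matrix protein, fell by 1.63 ± 0.38 on the log2 scale with bleomycin, and Cytl1 by 1.98 ± 0.27. The cartilage collagen gene Col2a1 and the aggrecan gene Acan, which is among the 11, were at low levels. Col2a1 was at 0.22 ± 0.185 CPM (SD, n = 5) in saline lungs and 0.609 ± 0.465 with bleomycin. Acan was at 0.0166 ± 0.0371 CPM in saline lungs and 0.672 ± 0.593 with bleomycin, where its lowest library (0.18 CPM) was above the highest saline one (0.083 CPM). Sox9, a transcription factor of cartilage, was at 1.16 ± 0.559 CPM in saline lungs, 2.85 ± 1.18 with bleomycin and 1.16 ± 0.829 with bleomycin and saracatinib. Its lowest bleomycin library (1.86 CPM) lay below its highest saline one (2.1 CPM). Replicate 5 of bleomycin with vehicle was highest for Col2a1 (1.42 CPM), Acan (1.7 CPM), Chodl (5.53 CPM) and Comp (2.34 CPM), but not for Col10a1. The part of cartilage cells in the rise of Chodl, Comp and Col10a1 was not tested.

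**Figure D2:**
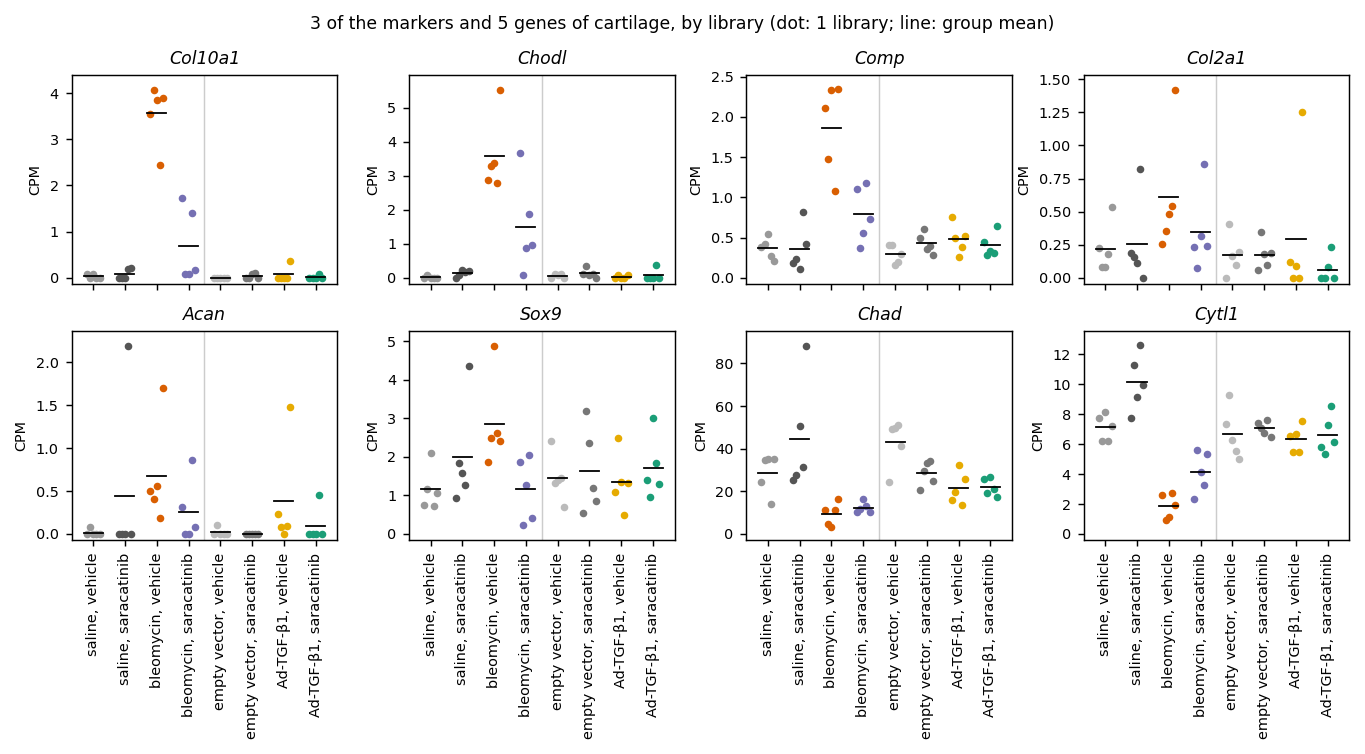
CPM (y axis, from 0) in each of the 40 libraries (dots; line, group mean) for 3 markers and 5 genes of cartilage, across the 8 groups (x axis). Col10a1, Chodl and Comp are highest with bleomycin and vehicle, as are the means of Sox9 (2.85 CPM), Acan (0.672 CPM) and Col2a1 (0.609 CPM), while Chad (9.38 CPM on average) and Cytl1 (1.86 CPM) are at their lowest there.

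Cd276 rose from a level already present in control lungs. It was at 4.98, 5.89, 6.27, 6.48 and 8.41 CPM with saline and at 17.2, 18.7, 20.8, 22.2 and 29.7 CPM with bleomycin, a change of 1.74 ± 0.17 with no overlap. Fap did not pass the threshold. Its libraries were at 3.4, 4.67, 5.15, 5.29 and 6.6 CPM with saline and 3.97, 4.01, 4.18, 4.6 and 4.83 CPM with bleomycin, a change of −0.24 ± 0.17. Postn did not pass it either, at 293, 336, 344, 407 and 464 CPM with saline and 318, 329, 339, 464 and 530 CPM with bleomycin, a change of 0.08 ± 0.17. For both genes the groups overlapped.

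In all, 7 of the 9 markers rose with bleomycin and none fell, where 20.6% of the 18846 genes tested rose. In those 7, every bleomycin library was above every saline library, which held for 15.2% of all genes tested. The median change of the 9 was 2.77, against −0.03 over all genes. The choice of the genes used these libraries, so nothing is read from these shares. Of 34 other genes of activated fibroblasts and their matrix, 32 rose and none fell, among them Grem1 (3.46 ± 0.53), a BMP antagonist, Thbs2 (3.28 ± 0.42), Tnc (3.26 ± 0.34), encoding tenascin C, and Timp1 (3.19 ± 0.43). Genes of resting alveolar fibroblasts went down: 14 of 15 fell and 1 rose, where 20.3% of all genes tested fell. Their summed level was 5030 to 6160 CPM with saline and 2250 to 3170 CPM with bleomycin. All 9 genes of scar-associated macrophages rose, from a summed 580 to 699 CPM to 1710 to 2880 CPM. No gene of these lists was at 0 in all libraries of a group. The part of these cells in the markers' rise was not tested.

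Saracatinib was followed by lower levels of most of the risen markers in bleomycin lungs. Cthrc1 was at 1.78, 2.23, 2.29, 4 and 4.93 CPM with saracatinib, below every bleomycin library given vehicle, a change of −2.05 ± 0.28. Lrrc15 was at 0.162, 0.223, 0.237, 1.02 and 1.96 CPM, a change of −2.94 ± 0.59, and its highest library overlapped the lowest one given vehicle. Cilp was at 6.48, 10, 13.4, 28 and 29.7 CPM, a change of −1.45 ± 0.35. Col10a1 was at 1 or 2 counts in 3 libraries (0.0744, 0.079 and 0.162 CPM) and at 1.41 and 1.72 CPM in the others, a change of −2.36 ± 0.52. Both Cilp and Col10a1 had no overlap with vehicle. Without replicate 1 of bleomycin with saracatinib, the changes of Lrrc15 and Col10a1 were −3.74 and −3.02, and limma voom gave −3.33 for Col10a1.

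Cd276, at 7.51, 8.48, 9.61, 10.4 and 12.7 CPM with saracatinib, changed by −1.15 ± 0.17 without overlap. Comp, at 0.372, 0.553, 0.727, 1.1 and 1.18 CPM, changed by −1.24 ± 0.34, and its call was lost without replicate 3 of bleomycin with vehicle, or without replicate 2 or 3 of bleomycin with saracatinib. Chodl, at 0.0744, 0.869, 0.969, 1.88 and 3.68 CPM, changed by −1.26 ± 0.46 and did not pass in edgeR. It passed without replicate 1 of bleomycin with saracatinib (−1.92). Limma voom, which kept all libraries but can give outlying ones less weight, called Chodl as well (−1.78). Postn (−0.38 ± 0.17) and Fap (−0.04 ± 0.17) did not pass, and their groups overlapped. The 5 Postn libraries with saracatinib were at 264, 298, 305, 325 and 326 CPM, 3 of them below the lowest bleomycin library given vehicle (318 CPM). The Fap libraries were at 3.57, 4.04, 4.15, 4.32 and 4.9 CPM.

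Thus 6 of the 9 markers fell with saracatinib in bleomycin lungs and none rose, where 8.71% of all genes tested fell. For 4 of them every saracatinib library was below every vehicle library, which held for 5.89% of all genes tested. The median change of the 9 was −1.26, against 0.01 over all genes. Lrrc15, Col10a1, Chodl and Comp passed the low-count filter only through bleomycin with vehicle, the group where they were high. The genes were also chosen with these libraries in view, so nothing is read from these shares. The 5 lungs given saracatinib were not alike. Replicates 1 and 4 held the top pair of levels for Cthrc1, Lrrc15, Cilp, Col10a1, Chodl, Comp and Cd276, and replicates 2, 3 and 5 the lower ones. The summed level of the 34 other matrix genes was 11900 and 10800 CPM in replicates 1 and 4, and 8110, 7710 and 9160 CPM in replicates 2, 3 and 5. Alveolar fibroblast genes summed to 3130 and 3900 CPM in that pair and to 4880, 4150 and 4410 CPM in the other 3. Scar-associated macrophage genes summed to 1510 and 1840 CPM in the pair and to 858, 1170 and 1680 CPM in the other 3, and their part in the markers' levels was not tested. Of the mean rise from saline to bleomycin, the share still present with saracatinib was 10.4% for Lrrc15, 11.5% for Cthrc1, 18.7% for Col10a1, 21.8% for Cd276, 27.6% for Cilp, 28% for Comp and 41.6% for Chodl. Without replicate 1 of bleomycin with saracatinib it was 4.66% for Lrrc15, 7.12% for Cthrc1, 11.4% for Col10a1 and 26.2% for Chodl. Of the 34 matrix genes, 31 fell, and 11 of the 15 alveolar fibroblast genes rose, where 8.71% of all genes tested fell and 5.31% rose.

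**Figure D3:**
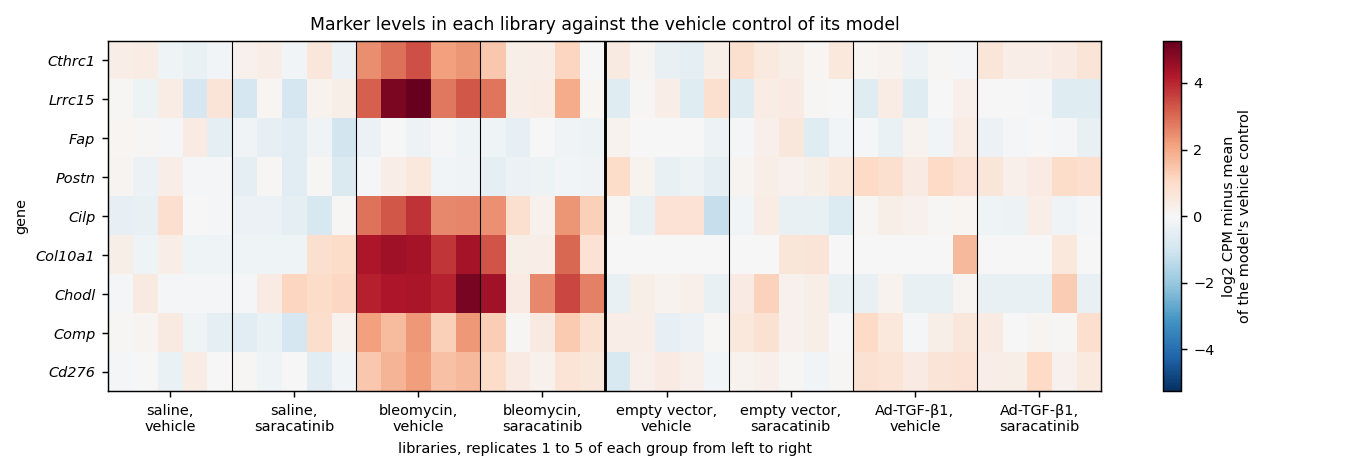
Level of each marker (rows) in each of the 40 libraries (columns, 5 replicates per group), as log2 CPM minus the mean of the vehicle control of the same model (colour scale, red higher, blue lower). In the bleomycin and saracatinib group, replicates 1 and 4 are redder than replicates 2, 3 and 5 for Cthrc1, Lrrc15, Cilp, Col10a1, Chodl and Comp.

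Bleomycin lungs given saracatinib were also set against saline lungs given saracatinib. Here 4 of the 9 markers were higher and none lower, where 7.79% of all genes tested were higher: Cilp (2.01 ± 0.39), Col10a1 (3.12 ± 0.94), Chodl (3.48 ± 0.75) and Cd276 (0.78 ± 0.18). The saline and saracatinib libraries of Cilp were at 3.01, 3.85, 4.45, 4.45 and 5.84 CPM and those of Cd276 at 4.11, 5.32, 5.73, 6.34 and 6.56 CPM, all below the bleomycin libraries given saracatinib. Col10a1 and Chodl overlapped, with 4 and 7 counts in all in the saline and saracatinib group. Both passed the low-count filter only through their levels in bleomycin lungs given vehicle, a group outside this comparison. A fit on the compared groups alone dropped both by that filter, so their calls here carry no weight. The Col10a1 call was lost without replicate 1, 2 or 3 of saline with saracatinib, or replicate 1 or 4 of bleomycin with saracatinib. Without replicate 4 or 5 of saline with saracatinib its change was 3.72 or 3.75, and limma voom did not call it (2.33). Without replicate 1 of bleomycin with saracatinib the change of Chodl was 2.83. Cthrc1 (0.56 ± 0.31), Lrrc15 (2.66 ± 1.03) and Comp (1.13 ± 0.43) did not pass in edgeR, nor did Postn (0.02 ± 0.17) and Fap (0.21 ± 0.17). DESeq2 called Lrrc15 (2.74), and Comp was called by limma voom (1.3) and by edgeR without replicate 4 of saline with saracatinib (1.69) or replicate 2 of bleomycin with saracatinib (1.32). Lrrc15 and Comp, too, passed the low-count filter only through bleomycin lungs given vehicle, so these calls carry no weight either.

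In saline lungs no marker was called for saracatinib against vehicle, where 0.00531% of all genes tested were called. At an unadjusted edgeR p under 0.05 there was 1 marker, Fap, where 1401 of all 18846 genes tested had such a p. DESeq2 and limma voom called 0 markers. Fap was at 2.44, 3.17, 3.58, 4.29 and 4.33 CPM with saracatinib, a change of −0.49 ± 0.17 (edgeR adjusted p = 0.517), and overlapped its vehicle group. Cthrc1 was at 1.38, 1.58, 2.1, 2.3 and 2.74 CPM, a change of 0.17 ± 0.33 (edgeR adjusted p = 0.901). Postn was at 215, 245, 252, 381 and 382 CPM, a change of −0.33 ± 0.17 (edgeR adjusted p = 0.696). Cilp (−0.45 ± 0.41, edgeR adjusted p = 0.784) and Cd276 (−0.19 ± 0.18, edgeR adjusted p = 0.793) stayed within overlapping ranges too. Lrrc15, Col10a1 and Chodl had at most 2 counts in any saline library given saracatinib, and Comp at most 9.

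The difference between the saracatinib effects in bleomycin and in saline lungs was fitted as an interaction. It was called lower for 1 of the 9 markers, Cthrc1 (−2.21 ± 0.43), where 0.446% of all genes tested were called lower. That call was lost without replicate 2 of bleomycin with vehicle, or replicate 2 or 3 of bleomycin with saracatinib. For Cd276 the interaction was −0.96 ± 0.25 and did not pass, though DESeq2 and limma voom called it, and so did the fits without replicate 1 of bleomycin with vehicle or of bleomycin with saracatinib, or replicate 4 of saline with saracatinib. The other 7 markers did not pass, with values from −3.55 ± 1.68 (Chodl) to 0.45 ± 0.24 (Fap).

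In the Ad-TGF-β1 model fewer of the markers passed the threshold. Tgfb1, whose counts can include those of the transgene, was at 58.9 to 79 CPM with empty vector and vehicle and 136 to 275 CPM with Ad-TGF-β1 and vehicle, a change of 1.71 ± 0.15. Only 5 of the 9 markers passed the low-count filter there, and 2 of those 5 rose while none fell, where 11.5% of the 18834 genes tested rose. Cd276 was at 4.35, 7.01, 9.21, 9.3 and 10.6 CPM with empty vector and at 10.7, 12.5, 13, 13.3 and 13.5 CPM with Ad-TGF-β1. The groups did not overlap, and the change was 0.62 ± 0.19 (edgeR adjusted p = 0.0202). Postn was at 106, 116, 127, 171 and 293 CPM with empty vector and at 202, 252, 274, 308 and 313 CPM with Ad-TGF-β1. Its groups overlapped through the empty vector library at 293 CPM, and the change was 0.72 ± 0.21 (edgeR adjusted p = 0.0192).

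Both calls were lost when single libraries were left out. The Postn call was lost without replicate 1 of Ad-TGF-β1 with vehicle (edgeR adjusted p = 0.0511) or replicate 3, 4 or 5 of empty vector with vehicle (edgeR adjusted p = 0.0542, 0.0526 and 0.0617). The Cd276 call was lost without replicate 1 or 5 of Ad-TGF-β1 with vehicle (edgeR adjusted p = 0.058 and 0.0505) or replicate 5 of empty vector with vehicle (edgeR adjusted p = 0.0544). Without the library pair of each model farthest from its group, chosen after seeing the data, Cd276 changed by 0.36 (edgeR adjusted p = 0.106). A fit on the compared groups alone called neither gene (edgeR adjusted p = 0.068 for Postn and 0.0507 for Cd276). With all libraries, DESeq2, limma voom and edgeR with no low-count filter each called both genes. Over all genes tested they called 5224 of 18834, 7183 of 18834 and 3915 of 36248.

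Cthrc1, Cilp and Fap did not pass with Ad-TGF-β1. Cthrc1 was at 1.16, 1.31, 1.94, 2.17 and 2.5 CPM with empty vector and at 1.45, 1.62, 1.83, 1.92 and 2 CPM with Ad-TGF-β1, a change of −0.06 ± 0.2 (edgeR adjusted p = 0.863). Cilp was at 5.93, 10.6, 14.8, 24.2 and 24.3 CPM and at 14.6, 14.6, 15.3, 16.8 and 17.8 CPM, a change of −0.04 ± 0.28 (edgeR adjusted p = 0.932). Fap was at 3.36, 4.1, 4.16, 4.2 and 4.67 CPM and at 3.17, 3.67, 3.95, 4.6 and 5.46 CPM, a change of 0.01 ± 0.19 (edgeR adjusted p = 0.976). In each of the 3 genes the ranges overlapped. For Cilp the empty vector libraries spread more widely (SD 8.19 CPM) than those with Ad-TGF-β1 (SD 1.42 CPM).

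The 4 markers that failed the filter were at a few counts per library. Lrrc15 had 6 counts in the 5 empty vector and vehicle libraries and 5 counts with Ad-TGF-β1 and vehicle. Chodl had 3 and 2 counts, and Comp 16 and 33 counts. Col10a1 was at 0 in all 5 empty vector and vehicle libraries, which allows up to 3 counts over the group, and had 5 counts in 1 library with Ad-TGF-β1 and vehicle. That library, replicate 5, was also the highest of its group for Acan (1.48 CPM) and Col2a1 (1.25 CPM), and the part of cartilage cells in its Col10a1 counts was not tested. The ratio of the summed Comp counts, Ad-TGF-β1 over empty vector, was 1.74 with an exact 95% interval from 0.933 to 3.39 for counting error only, and that of Lrrc15 was 0.705 with an interval from 0.17 to 2.77. For Chodl the ratio was 0.564, with an interval from 0.0471 to 4.92. The upper bounds for Lrrc15 and Chodl lie below the lower bounds of the same ratios with bleomycin (19.9 and 37.8), and that of Comp lies within its bleomycin interval (3.14 to 8.21). All these intervals leave out the spread between mice, and the bleomycin changes are treated as used in choosing the genes. No difference between the models is therefore read from these bounds. Differences inside these intervals were not detectable at this depth.

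Other fibroblast genes did move with Ad-TGF-β1. Of the 34 matrix genes, 19 rose and 1 fell, with the largest rises in P4ha3 (1.68 ± 0.25), a subunit of a collagen prolyl hydroxylase, Ltbp2 (1.67 ± 0.15), Mmp2 (1.22 ± 0.15), a gelatinase, and Lox (1.19 ± 0.22), the collagen cross-linking lysyl oxidase. Of 24 tested genes of the TGF-β response, 12 rose and none fell, and Tgfb1 itself is among the 12. Over all genes tested, 11.5% rose and 14.3% fell. Near those shares, 2 of 15 alveolar fibroblast genes rose and 2 fell. Of 18 tested cartilage genes, 2 rose and 4 fell, and Mmp13, a collagenase, rose most (2.61 ± 0.38).

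**Figure D4:**
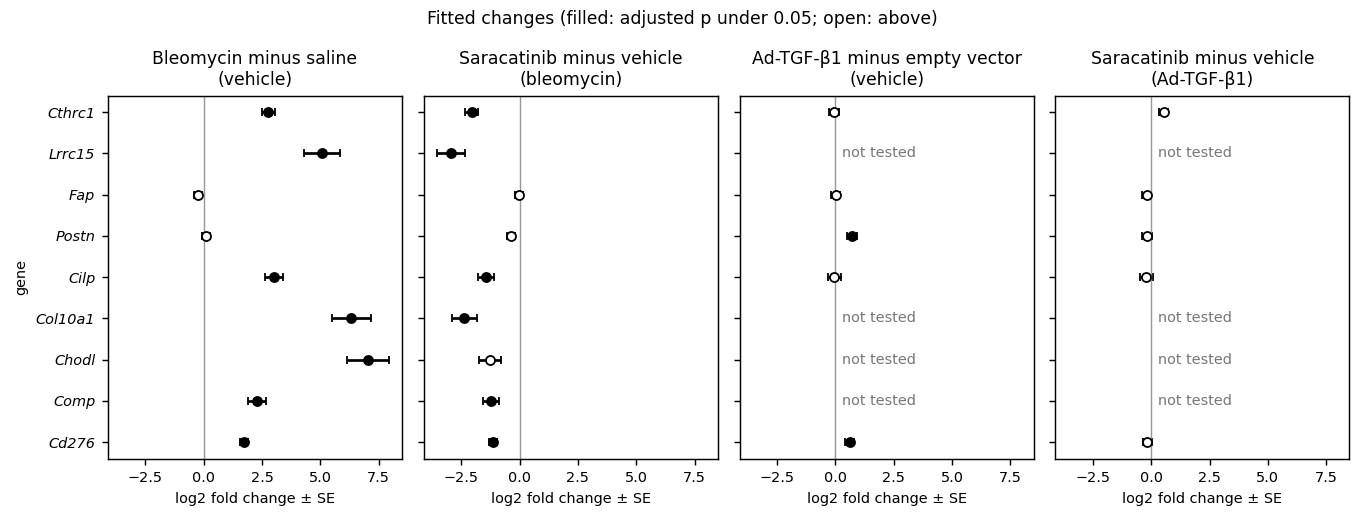
Fitted log2 fold change of each marker (points) with its SE (bars) in 4 comparisons (panels), filled where the adjusted p was under 0.05, on 1 shared x axis. With bleomycin 8 markers lie right of 0, of which 7 are filled, and with saracatinib in bleomycin lungs all 9 lie left of 0, of which 6 are filled, while the 5 markers tested in the Ad-TGF-β1 model lie between −0.22 and 0.72.

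No marker passed the threshold for saracatinib in the Ad-TGF-β1 model. In Ad-TGF-β1 lungs none of the 5 tested markers was called, where 0.0903% of all genes tested were called. At an unadjusted edgeR p under 0.05 there was 1 marker, Cthrc1, where 1649 of all 18834 genes tested had such a p. DESeq2 and limma voom called 0 markers. Cthrc1 was at 2.29, 2.3, 2.44, 2.81 and 2.92 CPM with saracatinib, above every Ad-TGF-β1 library given vehicle, a change of 0.53 ± 0.19 (edgeR adjusted p = 0.454). Its direction was the opposite of that in bleomycin lungs and the same as in empty vector lungs (0.47 ± 0.2, not called). The interaction of Cthrc1 in this model was 0.06 ± 0.27. Cd276 was at 9, 9.6, 10, 11 and 16.4 CPM, a change of −0.16 ± 0.19 (edgeR adjusted p = 0.813), and Postn at 183, 203, 238, 277 and 294 CPM, a change of −0.17 ± 0.21 (edgeR adjusted p = 0.832). Cilp changed by −0.22 ± 0.28 and Fap by −0.2 ± 0.19, with ranges of 11.7 to 17.9 CPM and 3.08 to 4.17 CPM.

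In empty vector lungs none of the 5 tested markers was called for saracatinib, where 0.00531% of all genes tested were called. Cthrc1 was the 1 marker with an unadjusted edgeR p under 0.05, where 2084 of all 18834 genes tested had such a p. It was at 1.88, 2.18, 2.58, 2.66 and 3.3 CPM with saracatinib, a change of 0.47 ± 0.2 (edgeR adjusted p = 0.427). DESeq2 and limma voom called 0 markers. With saracatinib in both groups, Ad-TGF-β1 against empty vector called none of the 5, where 2.58% of all genes tested were called. There Cd276 (0.44 ± 0.19, edgeR adjusted p = 0.252) was the 1 marker with an unadjusted edgeR p under 0.05. Over all genes tested in that comparison, 3186 of 18834 had such a p. DESeq2 and limma voom called 0 markers. Postn differed by 0.35 ± 0.21 (edgeR adjusted p = 0.424) and Cthrc1 by 0.01 ± 0.19 (edgeR adjusted p = 0.99). The interaction called none of the 5, and 0% of all genes tested. No marker reached an unadjusted edgeR p under 0.05 for the interaction, where 1933 of all 18834 genes tested did. DESeq2 and limma voom called 0 markers there.

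The rise with bleomycin was set against the rise with Ad-TGF-β1 in a fit over all 40 libraries. The difference was higher for 5 of the 9 markers and lower for none, where 8.64% of all genes tested were higher: Cthrc1 (2.84 ± 0.37), Lrrc15 (5.55 ± 1.67), Cilp (3.05 ± 0.48), Chodl (7.7 ± 2.34) and Cd276 (1.12 ± 0.26). The Lrrc15 and Chodl values rest on groups of a few counts, as do those of Col10a1 and Comp. None of these genes passed the low-count filter in the Ad-TGF-β1 model alone. The Lrrc15 call was lost without replicate 3 or 5 of empty vector with vehicle, and the Chodl call without replicate 2, 3 or 4 of it. Without replicate 2 of saline with vehicle the Chodl difference was 9.1, and limma voom gave 6.73 for Chodl and 4.9 for Lrrc15. Without the library pair of each model farthest from its group, the Lrrc15 difference was 4.89 and not called. Comp (1.54 ± 0.57), Postn (−0.63 ± 0.29) and Fap (−0.24 ± 0.25) did not pass in edgeR. Limma voom called 7 of the 9, adding Col10a1 as higher and Postn as lower (−1.02), where it called 4756 of all 19529 genes tested. Comp passed without replicate 3 of saline with vehicle, replicate 4 of bleomycin with vehicle or replicate 1 of Ad-TGF-β1 with vehicle, and Postn without replicate 1 of empty vector with vehicle (−0.97) or without the library pair of each model farthest from its group (−1.01). No fold is given for Col10a1, whose empty vector group was at 0. The saracatinib effect in bleomycin lungs was lower than that in Ad-TGF-β1 lungs for 2 of the 9, Cthrc1 (−2.58 ± 0.35) and Cd276 (−0.99 ± 0.25), where 1.41% of all genes tested were lower. Limma voom called Col10a1 as well, a gene at a few counts in Ad-TGF-β1 lungs, where it called 716 of all 19529 genes tested. The Cd276 call was lost without any of 8 single libraries: replicate 2 or 3 of bleomycin with vehicle, 2, 3 or 5 of bleomycin with saracatinib, 3 or 4 of Ad-TGF-β1 with vehicle, and 3 of Ad-TGF-β1 with saracatinib.

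The vehicle controls of the models differed in some markers. Cilp was at 5.86 ± 2.55 CPM (SD, n = 5) with saline and 16 ± 8.19 CPM with empty vector, and Postn at 369 ± 67.2 CPM and 162 ± 76.8 CPM. The agent, its route and the set of mice cannot be told apart in these differences. Over the 8 groups, bleomycin with vehicle had the highest mean of every marker but Fap. For Cthrc1, Cilp, Col10a1 and Cd276 it lay apart from the next group, bleomycin with saracatinib for the first 3 and Ad-TGF-β1 with vehicle for Cd276. Every other pair of neighbours in the order of the means, in every marker, overlapped. Cthrc1 ran from there through 3.05 CPM with bleomycin and saracatinib down to 1.77 CPM with Ad-TGF-β1 and vehicle. Fap ran from 5.02 CPM with saline and vehicle to 3.56 CPM with saline and saracatinib, and Postn from 396 CPM with bleomycin and vehicle to 162 CPM with empty vector and vehicle.

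Likeness between genes was measured as Pearson's r of log2 CPM over the 40 libraries after each group mean was taken off, among 17164 genes, and is given as a description. The libraries share their depth and the mix of cells in the tissue piece. Postn was most like Clstn2 and Lhfp (both r = 0.89), then Adamtsl3, Colec12 and Sdc2 (each r = 0.86), and the summed pericyte markers ran with it as well (r = 0.78). Cd276 was most like Pde1b (r = 0.8) and Adcy7 (r = 0.74). Cilp was most like the cell division genes Ccnb1 (r = 0.78) and Rrm2 (r = 0.76), and Cthrc1 most like Fbxw11 and Colgalt1 (both r = 0.73), the latter encoding a collagen galactosyltransferase. Fap was most like Gimap8 (r = 0.68). Averaged over the r of the 20 libraries of each model, without taking off group means, the likest genes were Nid1 for Postn (r = 0.9), Adcy7 and Mmp14 for Cd276 (both r = 0.89), Csmd1 for Cilp (r = 0.87), Chp1 for Cthrc1 (r = 0.74) and Camk2a for Fap (r = 0.64). Lrrc15, Col10a1, Chodl and Comp are left out here, because most of their libraries hold a few counts. Among the 10 pairs of the other 5 markers, r within groups over the 40 libraries had a median of 0.08, from −0.36 to 0.47. The median was 0.24 within the bleomycin model and −0.01 within the Ad-TGF-β1 model.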

How the data were processed

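RNA of 40 whole left lungs was depleted of ribosomal RNA and sequenced from stranded libraries, per the labels' protocols. The deposited tables hold a whole-number count per gene and library, one table per model. Per the submitters' processing notes STAR 2.6.1d, Picard, featureCounts of Subread 1.6.3 and edgeR were used, and the builds mm9 and GRCm38 are named without a role. Whether counting used strand was not given in the sources used here. Counts of genes that overlap on opposite strands are therefore uncertain. Identifiers were joined to GENCODE M21.

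In R 4.3.3, edgeR 4.0.16 filtered genes with filterByExpr, scaled libraries by TMM and ran quasi-likelihood tests with 1 coefficient per group, over 20 libraries per model or all 40 between models. The 12 comparisons were adjusted by Benjamini-Hochberg over all genes tested. CPM uses TMM-scaled totals, FPKM the exon union length, and log2 CPM a prior count of 2. SEs are the absolute change over the root of the F statistic.

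Groups came from the labels, which name 5 replicates per group. Over 80 replicate pairs the chi-square per degree of freedom ran from 4.29 to 52.7, so no pair agreed within counting noise. The markers, gene lists and tests were chosen with earlier results of these data known. Of each list, up to 4 called genes with a mean of at least 1 CPM and the largest changes were named, and Col2a1, Acan, Sox9 and replicates' values were named after their values were seen. The 5 likest genes per marker were ranked, and the first of them named. DESeq2 1.42.0 and limma 3.58.1 (voom with a quality weight for each library) were alternatives. Others were DESeq2 size factors, no low-count filter, the compared groups only, and each library left out. Intervals are exact binomial at 95%.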

Additional observations from a re-analysis of the deposited data

Results flagged for a closer look

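In 7 of the 72 sets of 5 libraries (9 markers in 8 groups) the highest library stood far from the other 4. The rule used sets about 1 in 20 apart by chance where values follow a normal spread, which was not checked here. They were Cilp in saline with vehicle (replicate 3, 10.3 CPM), Chodl in bleomycin with vehicle (replicate 5, 5.53 CPM) and Cd276 in Ad-TGF-β1 with saracatinib (replicate 3, 16.4 CPM). The other 4 rest on 1 to 5 counts: Col10a1 in Ad-TGF-β1 with vehicle (replicate 5, 0.369 CPM), Col10a1 (0.0762 CPM) and Chodl (0.381 CPM) in Ad-TGF-β1 with saracatinib (replicate 4 for both), and Chodl in saline with vehicle (replicate 2, 0.083 CPM). In each of these 4 sets the remaining libraries held 0 counts. The rule flags every such set, so the 1 in 20 does not apply to them.

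Some fitted differences between effects passed the threshold. The markers were chosen with earlier results of these libraries in view, so the values are treated as descriptions and not tests. Lrrc15 and Chodl did not pass the low-count filter in the Ad-TGF-β1 model alone. The saracatinib effect on Cthrc1 was lower in bleomycin than in saline lungs by an interaction of −2.21. The bleomycin rise was above the Ad-TGF-β1 change for Cthrc1 (2.84), Lrrc15 (5.55), Cilp (3.05), Chodl (7.7) and Cd276 (1.12), all on the log2 scale. The saracatinib effect was lower in bleomycin than in Ad-TGF-β1 lungs for Cthrc1 (−2.58) and Cd276 (−0.99).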

How the results depend on the processing

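Of 1706 recomputed changes of single markers, 1649 kept their side of the threshold, 38 lost a call, 19 gained one, and none of the called ones changed sign, while 62 values that were not called did. Markers that the low-count filter dropped in a refit are not among the 1706, so calls lost that way are not in the 38. Col10a1 and Chodl lost calls that way for bleomycin under saracatinib, with the compared groups only. The number of markers called was the same or within a ratio of 1.5 under DESeq2 size factors in all 12 comparisons. With the compared groups only, it was 2 for bleomycin against saline under saracatinib and 0 for Ad-TGF-β1 against empty vector. It was 2 for the bleomycin interaction by DESeq2 and by limma voom. It was 1 for the difference in saracatinib effects between models with no low-count filter, and 1 for Ad-TGF-β1 against empty vector once the libraries standing farthest from their groups, 2 in each model, were dropped (chosen after seeing the data). Leaving out 1 library at a time gave 7 markers for bleomycin, 5 to 7 for saracatinib in bleomycin lungs, 3 to 5 for bleomycin under saracatinib, 0 to 2 for its interaction, 0 to 2 for Ad-TGF-β1, 3 to 6 and 1 to 2 for the differences between models in injury and in saracatinib, and 0 for the other comparisons. No paired analysis was possible because the labels give the groups no shared replicate numbers.

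Counts over all genes moved by more than 1.5 times in several comparisons. By DESeq2 they were 806 against 199 for the bleomycin interaction, 793 against 485 for Ad-TGF-β1 under saracatinib, 746 against 481 for saracatinib between models, 51 against 17 for saracatinib in Ad-TGF-β1 lungs, 23 against 1 in saline and 7 against 1 in empty vector lungs, and 1 against 0 for the Ad-TGF-β1 interaction. By limma voom they were 415 for the bleomycin interaction, 959 for Ad-TGF-β1 under saracatinib, 101 for saracatinib in Ad-TGF-β1 and 9 in saline lungs, 413 for the Ad-TGF-β1 interaction, and 4756 against 2951 for injury between models. With no low-count filter, 219 were called for saracatinib between models and 3 in saline lungs. Without replicate 1 of empty vector with vehicle, edgeR called 1112 genes for saracatinib in empty vector lungs and 1190 for the Ad-TGF-β1 interaction. For saracatinib in bleomycin lungs, 2643 genes were called with all libraries, and 1690, 1339, 1326 and 1470 without replicate 2 or 3 of bleomycin with vehicle or replicate 2 or 3 of bleomycin with saracatinib. Leaving out 1 library at a time moved the count from 199 to between 35 (without replicate 2 of bleomycin with vehicle) and 583 (without replicate 1 of bleomycin with saracatinib) for the bleomycin interaction. It moved from 481 to between 106 (without replicate 3 of bleomycin with vehicle) and 803 (without replicate 1 of bleomycin with saracatinib) for saracatinib between models, from 3011 to 1672 to 3356 for bleomycin under saracatinib, and from 485 to 181 to 665 for Ad-TGF-β1 under saracatinib. Markers at a few counts per library are limited by depth.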
